A study of Homo sapiens with 3 samples.

Results

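H19, IGF2 and the other genes of the insulin-like growth factor axis were followed in 5637 cells, an established line of human bladder cancer cells, after siRNA against MYBL2. The 10 genes were the rows named H19, IGF2, IGF1R, IGF2R, IGFBP2, IGFBP3, IGFBP4, IGFBP6, IGF2BP2 and IGF2BP3, out of 35851 rows in all. They were picked by name, with the values of these libraries already known, so their levels and differences are given below as a description, and counts of them in a fit over all rows are read in the same way. Poly(A) RNA was sequenced in 3 libraries of wild-type cells, all transfected with a Lipofectamine reagent and grown in RPMI medium with serum: siNC received a control siRNA, and siMYBL2-1 and siMYBL2-2 received siRNA targeting MYBL2. Where 3 values stand in a row below, they are those of siNC, siMYBL2-1 and siMYBL2-2. MYBL2, a transcription factor of dividing cells whose downstream genes the study sought, was at 211, 46.0 and 56.3 RPKM, in the direction of the labels. RPKM scales the reads of a row to its exonic length in kilobases and to the assigned reads of the library. It is not stated if -1 and -2 were made with 2 siRNA sequences or with 1 used again, or if the cultures were separate, so the spread of the siMYBL2 pair may be technical.

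IGF2 is a secreted peptide hormone of fetal growth that signals through the receptor tyrosine kinase IGF1R and through an isoform of the insulin receptor. IGF2R, which also carries mannose 6-phosphate tagged enzymes, binds IGF2 and takes it to the lysosome, and the IGFBP proteins hold the ligands outside the cell and release them on cleavage. H19, a long noncoding RNA that is the host of the microRNA gene MIR675, lies next to IGF2 on chromosome 11. In normal tissue the pair is imprinted, with H19 read from the maternal and IGF2 from the paternal copy under a control region that binds CTCF. IGF2BP2 and IGF2BP3 are RNA-binding proteins that were found on IGF2 mRNA and bind many other transcripts, among them those with N6-methyladenosine.

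The sequences of the H19 locus are shown first, with the intervals that bear on which reads the H19 row can hold. The MIR675 hairpin (chromosome 11, 1996759 to 1996831, minus strand, GRCh38.p14) lay inside 9 of the exon intervals of the H19 row, and 1 of these intervals was the hairpin itself. The mature products are given with the seed, bases 2 to 8, in capitals. The library holds poly(A) RNA, so the mature forms themselves were not measured.
hsa-miR-675-5p: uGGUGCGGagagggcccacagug
hsa-miR-675-3p: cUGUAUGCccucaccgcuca

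Beside H19 the table holds 3 short rows named H19_1, H19_2 and H19_3, which are annotated on the plus strand, opposite to H19. H19_1 (chromosome 11, 1996540 to 1996610, hg38) and H19_2 (1997484 to 1997552) lay wholly in H19 exons, with 71 of 71 and 69 of 69 bases inside them. Read on the minus strand, the H19_1 stretch occurred whole in 5 of the 12 H19 transcripts of GENCODE release 29 and the H19_2 stretch in 2. Both rows have a further interval of the same length on an unlocalised scaffold of hg38, at an equal offset of 1944818 bases. H19_3 has no annotated interval in H19. It has 1 interval elsewhere on chromosome 11 (83386988 to 83387102) and 1 on the same scaffold. The H19_1 and H19_2 stretches are shown in the direction of H19.
H19_1: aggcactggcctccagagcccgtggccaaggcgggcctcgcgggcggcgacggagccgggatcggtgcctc
H19_2: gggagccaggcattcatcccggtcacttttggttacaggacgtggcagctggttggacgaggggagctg

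H19 was high in siNC and lower in both siMYBL2 libraries. The row (chromosome 11, 1995163 to 2001470, minus strand, hg38) held 235 RPKM (26697 reads) in siNC, and only 43.3 RPKM (5116 reads) and 79.1 RPKM (10322 reads) after siMYBL2-1 and siMYBL2-2. The siNC library was above both siMYBL2 libraries, and siMYBL2-1 was the lowest. The siNC level was 5.42 times that of siMYBL2-1 (95% counting interval 5.26 to 5.59) and 2.97 times that of siMYBL2-2 (2.90 to 3.04). The siMYBL2 mean was 61.2 ± 25.3 RPKM (SD, n = 2). In bulk RNA, fewer cells that express a gene and less RNA per cell cannot be told apart. By rank of RPKM over all rows H19 was at place 181, 1081 and 605.

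The H19-named rows had the same order of libraries as H19. H19_1 held 3717, 790 and 1759 reads, H19_2 held 8461, 1544 and 2828 reads and H19_3 held 9553, 1556 and 2775 reads. Relative to siNC these rows were at 0.205, 0.176 and 0.157 times in siMYBL2-1 and at 0.413, 0.291 and 0.253 times in siMYBL2-2, beside 0.184 and 0.337 times for H19. Each of these rows was lower in both siMYBL2 libraries and lowest in siMYBL2-1, as H19 was. Together the 3 short rows held 44.9%, 43.2% and 41.6% of the reads of all 4 rows. Whether a read could count in several rows is not given in the sources used here, so the H19 row may or may not hold all reads of its RNA. The sum of the 4 rows was 48428, 9006 and 17684 reads, or 0.179 and 0.318 times siNC relative to all assigned reads, an alternative added after the data had been seen.

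**Figure D1:**
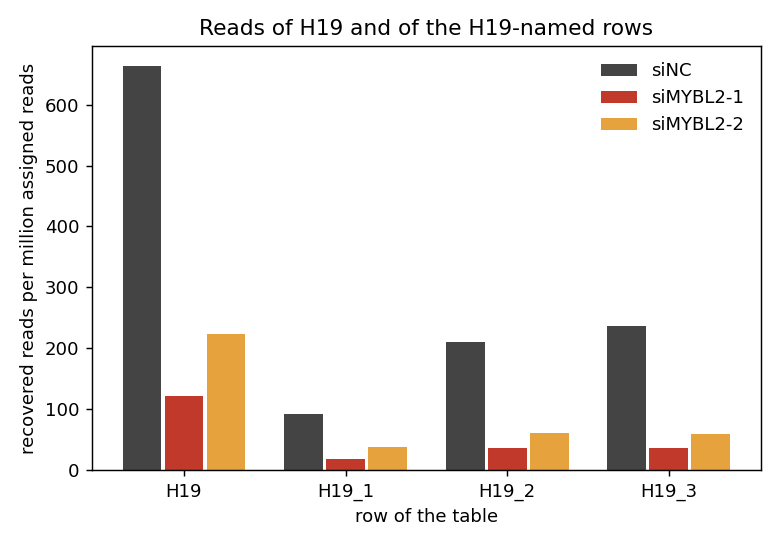
Bars show the recovered reads in RPM, that is relative to all reads assigned in that library (y axis, from 0), of H19 and of the 3 H19-named rows (x axis) in siNC, siMYBL2-1 and siMYBL2-2, with 1 library per bar and no error bar. In all 4 rows siNC is highest and siMYBL2-1 lowest, from 663 to 122 RPM for H19 and from 237 to 37.2 RPM for H19_3.

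IGF2 was the most abundant of the 10 genes per length in every library. In siNC it was followed by H19, IGFBP3, IGFBP4, IGF2BP2, IGF2R, IGFBP6, IGF1R, IGF2BP3 and IGFBP2, and in siMYBL2-1 H19 and IGFBP3 were level at 43.3 RPKM. It (chromosome 11, 2129112 to 2141238, minus strand, hg38) was at 760.4, 590.3 and 333 RPKM (191609, 154507 and 96244 reads). The siNC library was the highest, but the siMYBL2 libraries were far apart, at 462 ± 182 RPKM (SD, n = 2). IGF2 was at 0.776 times siNC in siMYBL2-1 (95% counting interval 0.771 to 0.781) and at 0.438 times in siMYBL2-2 (0.434 to 0.441). Its order between the siMYBL2 libraries was opposite to that of H19: siMYBL2-1 was 1.77 times siMYBL2-2 (1.76 to 1.79) for IGF2 and 0.547 times (0.529 to 0.566) for H19. The level of the H19 row per length, without the H19-named rows, was thus 30.9%, 7.34% and 23.8% of that of IGF2. IGF2 was at rank 54, 71 and 129 of all rows.

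Other rows of the IGF2 locus shared bases with it, and 76.6% of the exonic bases of IGF2 belonged to no other row. INS-IGF2, a readthrough of the insulin gene into IGF2, shared 998 bases with IGF2 and was at 19.2, 15.0 and 9.76 RPKM, the same order as IGF2. AC132217.4, on the same strand and with all 373 of its bases inside IGF2, was at 13.9, 14.1 and 8.88 RPKM (209, 220 and 153 reads), with siNC between the siMYBL2 libraries. It was at 1.01 times siNC (95% counting interval 0.835 to 1.23) in siMYBL2-1 and at 0.638 times (0.515 to 0.790) in siMYBL2-2. Of the exonic bases of INS-IGF2, only 43.5% were in no other row, and of those of AC132217.4 0%, and how reads in shared bases were counted is not given in the sources used here. With the reads of INS-IGF2 added to those of IGF2, the sum was at 0.776 and 0.439 times siNC, an alternative added after the data had been seen. INS-IGF2 held 1869 reads in siNC against 191609 for IGF2, so the sum could differ little from IGF2 alone. IGF2-AS, which is annotated on the opposite strand with 84.1% of its bases in no other row, had a different order, at 1.62, 2.91 and 0.710 RPKM. The library protocol marks the second strand, per the labels, but whether the counting used strand is not stated, so reads in the 91 bases shared with IGF2 may belong to either.

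**Figure D2:**
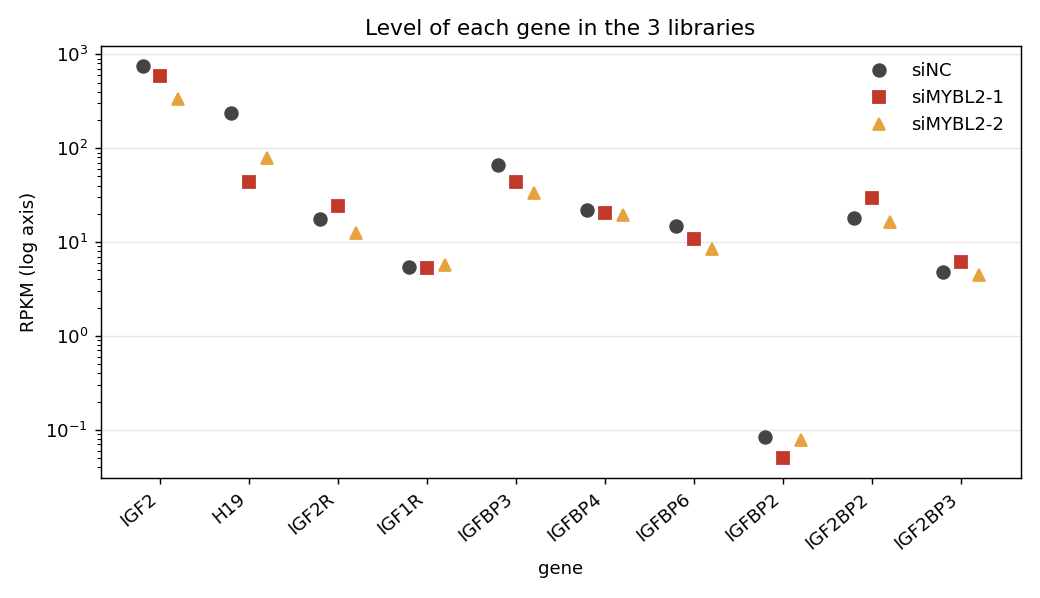
The RPKM (y axis, log scale) of each of the 10 genes (x axis) is drawn per library, with 1 point for siNC, siMYBL2-1 and siMYBL2-2 and no error bar. IGF2 is the highest gene in all 3 libraries (333 to 760.4 RPKM), IGFBP2 lies below 0.1 RPKM, and H19 shows, on this scale, the widest gap between siNC and both siMYBL2 libraries.

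The receptors did not share a pattern. IGF1R, the signalling receptor (chromosome 15, 98648971 to 98964530, plus strand, hg38), was almost level at 5.47, 5.27 and 5.68 RPKM (2975, 2980 and 3545 reads). The siNC value lay between the siMYBL2 values, whose mean was 5.48 ± 0.288 RPKM (SD, n = 2). The counting intervals of its ratio to siNC, 0.916 to 1.01 and 0.989 to 1.09, both held 1. With the libraries rescaled by median-of-ratios size factors IGF1R was higher in both siMYBL2 libraries, so its direction depends on the scaling.

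IGF2R, the clearance receptor, went in opposite directions. It (chromosome 6, 159969099 to 160113507, plus strand) was at 17.7, 24.0 and 12.5 RPKM (10597, 14935 and 8609 reads). The siNC level lay between the siMYBL2 libraries, whose mean of 18.2 ± 8.10 RPKM (SD, n = 2) was close to it. Relative to siNC, IGF2R was at 1.36 times (95% counting interval 1.32 to 1.39) in siMYBL2-1 and at 0.708 times (0.688 to 0.729) in siMYBL2-2. IGF2 thus exceeded IGF2R per length by 43.1 times in siNC, 24.6 times in siMYBL2-1 and 26.6 times in siMYBL2-2, and IGF2R exceeded IGF1R by 3.23, 4.54 and 2.20 times.

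Of the binding proteins, IGFBP3 was the most abundant, and it was lower in both siMYBL2 libraries. IGFBP3, the main carrier of these ligands in blood (chromosome 7, 45912245 to 45921874, minus strand), was at 67.0, 43.3 and 33.6 RPKM (12337, 8282 and 7097 reads). The siMYBL2 mean was 38.5 ± 6.86 RPKM (SD, n = 2), and siNC lay above both. It was at 0.646 times siNC (95% counting interval 0.629 to 0.665) in siMYBL2-1 and at 0.501 times (0.487 to 0.516) in siMYBL2-2.

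IGFBP6, which prefers IGF2 over IGF1 (chromosome 12, 53097436 to 53102345, plus strand), had the same order at a lower level, with 14.8, 10.9 and 8.52 RPKM (763, 582 and 503 reads). It was at 0.734 times siNC (95% counting interval 0.658 to 0.819) and at 0.575 times siNC (0.512 to 0.644). IGF2, IGFBP3 and IGFBP6 were thus each highest in siNC and lowest in siMYBL2-2. IGFBP4, an inhibitory binding protein that the protease PAPPA cleaves (chromosome 17, 40443461 to 40457731, plus strand), differed little, at 21.9, 20.2 and 19.6 RPKM (1938, 1859 and 1989 reads). It was at 0.923 times siNC (0.866 to 0.985) and at 0.895 times (0.840 to 0.953), with a siMYBL2 mean of 19.9 ± 0.444 RPKM (SD, n = 2). IGFBP2 (chromosome 2, 216632828 to 216664436, plus strand) was barely detected, with 16, 10 and 17 reads or 0.0834, 0.0502 and 0.0772 RPKM, and no difference was detectable at this depth (intervals of the ratio to siNC 0.244 to 1.41 and 0.440 to 1.96).

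The RNA-binding genes IGF2BP2 and IGF2BP3 were each higher in siMYBL2-1 than in siNC and slightly lower in siMYBL2-2. IGF2BP2 (chromosome 3, 185643739 to 185825056, minus strand) was at 18.3, 29.4 and 16.4 RPKM (3480, 5830 and 3579 reads), with a siMYBL2 mean of 22.9 ± 9.24 RPKM (SD, n = 2). It was at 1.61 times siNC (95% counting interval 1.55 to 1.68) and at 0.897 times siNC (0.855 to 0.940). The difference within the siMYBL2 pair, 1.80 times (1.73 to 1.88), was therefore larger than that of either library from siNC. IGF2BP3 (chromosome 7, 23310209 to 23470467, minus strand) was at 4.82, 6.20 and 4.41 RPKM (1650, 2205 and 1733 reads), or 1.29 times siNC (1.21 to 1.37) and 0.916 times siNC (0.855 to 0.980). Of its exonic bases, 82.1% belonged to no other row, since it overlaps MALSU1 on the opposite strand by 1521 bases. IGF2BP1, the other member of the family, was nearly absent, with 2, 2 and 13 reads.

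Promoters of IGF2R and IGF2BP3 are shown because they share a motif, so this choice was made after the matches were seen. RefSeq windows of 250 bases before to 50 after a start (GRCh38.p14) were found for 9 of the 10 genes, in 12 windows. Each was searched on both strands for CACGTG (the palindromic E-box), TTTGAA (the cell cycle element CHR of MuvB targets) and AACNG (the core of MYB sites). CACGTG occurred in 2 of the 12 windows, 3 times in IGF2R and 2 times in IGF2BP3. IGF2BP2, which had the same order over the libraries as IGF2R and IGF2BP3, held 0 matches of CACGTG in its windows. Any link of the motif with the levels was not tested. Among all 35116 RefSeq windows, 7.26% held it at least once, 0.664% at least 2 times and 0.0940% at least 3 times. TTTGAA occurred in 3 of the 12 windows, 1 each of IGFBP2, IGF2BP2 and IGF2BP3, against 15.2% of all windows, and in IGF2BP3 1 match ends where an E-box begins. AACNG occurred in 8 of the 12 windows, of 7 genes, and 77.2% of all windows held it. The windows of IGF2R (chr6:159968832-159969131, plus strand) and IGF2BP3 (chr7:23470442-23470741, minus strand) have matches of CACGTG and TTTGAA in capitals. A match is a description of the letters, not a binding site.
IGF2R: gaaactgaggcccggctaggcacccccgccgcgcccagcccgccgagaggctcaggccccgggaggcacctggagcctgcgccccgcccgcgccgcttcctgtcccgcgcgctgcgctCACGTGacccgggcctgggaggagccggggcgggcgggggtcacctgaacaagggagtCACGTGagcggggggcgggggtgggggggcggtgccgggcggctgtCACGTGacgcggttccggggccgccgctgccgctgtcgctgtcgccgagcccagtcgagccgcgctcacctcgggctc
IGF2BP3: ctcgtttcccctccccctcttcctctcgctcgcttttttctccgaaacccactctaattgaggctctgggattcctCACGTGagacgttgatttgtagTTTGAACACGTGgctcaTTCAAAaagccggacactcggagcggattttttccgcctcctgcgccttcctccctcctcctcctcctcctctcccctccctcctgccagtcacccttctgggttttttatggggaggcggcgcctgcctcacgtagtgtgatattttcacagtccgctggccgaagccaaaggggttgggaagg

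**Figure D3:**
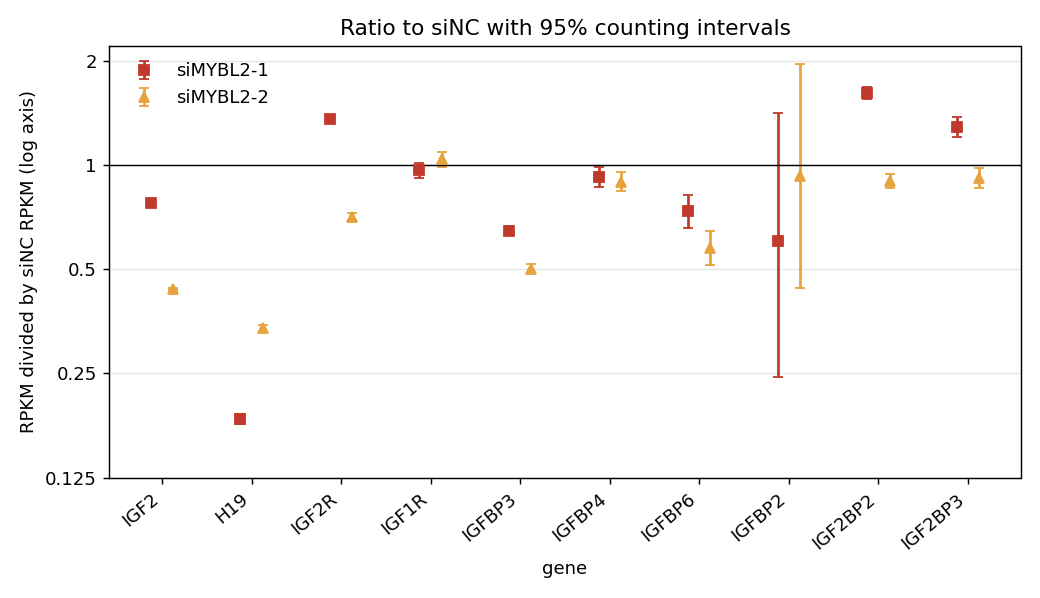
Points show the RPKM in siMYBL2-1 and siMYBL2-2 divided by that in siNC (y axis, log scale) for each of the 10 genes (x axis), and bars are 95% counting intervals that leave out any spread between cultures. H19 lies lowest (0.184 and 0.337 times siNC). IGF2, IGFBP3, IGFBP4 and IGFBP6 also lie below 1 in both libraries, and so do the points of IGFBP2, whose intervals hold 1. IGF2R, IGF2BP2 and IGF2BP3 lie above 1 in siMYBL2-1 and below 1 in siMYBL2-2.

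Over the 10 genes, siNC was above both siMYBL2 libraries in 6 (H19, IGF2, IGFBP2, IGFBP3, IGFBP4 and IGFBP6), between them in 4 and below both in 0. Of the 13274 rows with a mean of at least 1 RPKM, which hold 9 of the 10 genes and leave out IGFBP2, 36.4% were lower in both siMYBL2 libraries, 29.7% higher in both and 33.9% neither. These shares are printed beside the counts only, since the genes were chosen with this contrast in view. They also depend on the scaling. With median-of-ratios scaling 32.8% of the rows were lower in both and 33.1% higher in both. Of the 10 genes, 6 were then lower in both and 1, IGF1R, higher in both. A log2(RPKM + 1) ratio of at most -1 in both siMYBL2 libraries was met by H19 alone among the 10, against 0.407% of all rows tested. A ratio of at least 1 in both was met by 0 of the 10, against 0.211%. The limma-trend fit, with 1 siNC library, did not call MYBL2 itself, whose mean difference from siNC was -2.03. A gene that limma did not call, here or in the lists below, is therefore not shown to be unchanged. Limma called 0 of the 9 genes at an adjusted p under 0.05, where it called 0.00753% of all rows higher and 0% lower, with 625 rows at an unadjusted p under 0.05. By limma-voom on the recovered reads, 0.0226% of all rows were called higher and 0.0527% lower, among the latter 1 of the 9 genes, H19, and 2 of the H19-named rows.

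The siMYBL2 libraries differed from each other by more than their mean differed from siNC in 6 of the 10 genes, on the log2(RPKM + 1) scale, against 57.0% of all rows tested. The genes were IGF2, IGF1R, IGF2R, IGFBP2, IGF2BP2 and IGF2BP3. Of these, IGFBP2 is below the filter, so it is not among the rows tested. For H19 the gap within the pair was -0.85 and the mean difference from siNC -1.98, and for IGFBP3 they were 0.36 and -0.80. The median difference from siNC over the 10 genes was -0.08 in siMYBL2-1 and -0.31 in siMYBL2-2, beside -0.04 and -0.01 over all rows tested. Both differences use the same siNC library.

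**Figure D4:**
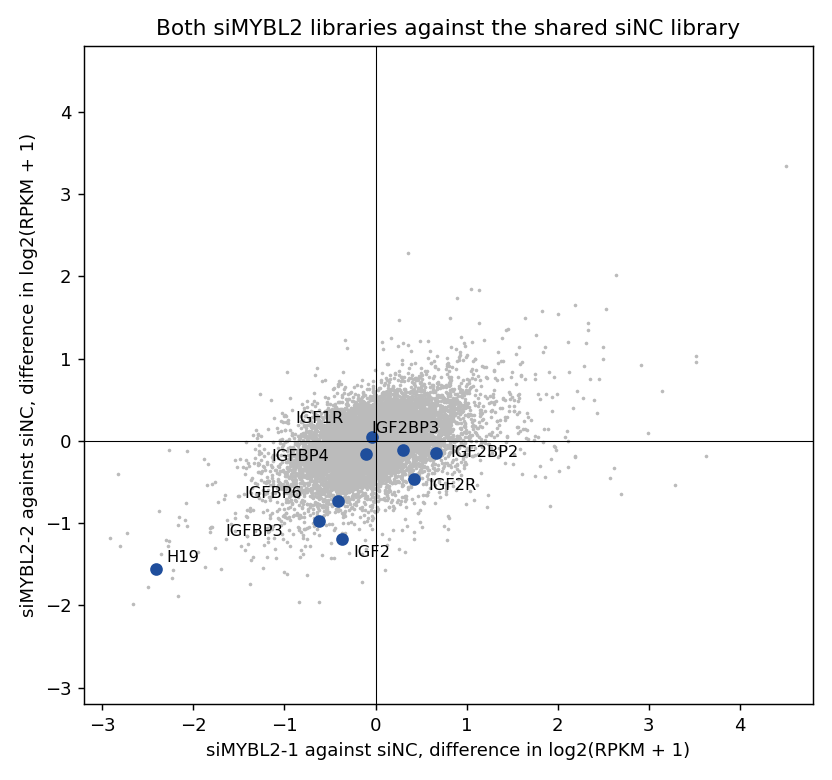
Each grey point is 1 of the 13274 rows tested, placed by its difference from siNC in log2(RPKM + 1) in siMYBL2-1 (x axis) and siMYBL2-2 (y axis), and blue points are 9 genes of the axis. H19 lies at -2.41 and -1.56, IGF2 at -0.36 and -1.19, and IGF2R, IGF2BP2 and IGF2BP3 in the lower right, where the libraries go apart.

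The rows most like H19 were sought among the other 6352 rows with a mean of at least 5 RPKM, by the distance between their pairs of log2(RPKM + 1) differences from siNC over these 3 libraries. MMP1, the interstitial collagenase, was nearest (distance 0.192), at 116, 24.0 and 38.2 RPKM. WTAPP1 followed (0.203), and then H19_2 (0.239), H19_1 (0.312) and AC019349.5 (0.372). H19_1 and H19_2 lie wholly in H19 exons and may share reads with H19, so they are not separate examples. WTAPP1 is annotated on the strand opposite to MMP1, over a span that holds the whole of MMP1. Whether the counting used strand is not stated, so WTAPP1 may share reads with MMP1. IGF2BP2 had the highest mean difference of the 10 genes, 0.26, and the named gene with a known role nearest to it was JUP (0.0460), the plakoglobin gene of desmosomes, at 20.6, 32.0 and 18.6 RPKM. RP11-26J3.4, NPIPB5, RP11-231C14.4 and ASPHD1 were nearer, at distances of 0.0206 to 0.0361.

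Among other genes of the IGF system, the secreted regulators HTRA1 and STC1 had the lowest differences from siNC. Of 19 listed genes 16 had a row and 7 passed the filter, and limma called 0 higher and 0 lower (smallest adjusted p 0.957). The list had 5 genes lower in both siMYBL2 libraries, 0 higher in both and 2 neither, with median differences of -0.34 and -0.37. INS-IGF2, which shares bases with IGF2, is 1 of those 5. HTRA1, a secreted serine protease that can cleave binding proteins, was at 8.81, 3.72 and 6.90 RPKM. STC1, a stanniocalcin, was at 3.02, 1.01 and 1.76 RPKM. At the other end, its relative STC2, an inhibitor of PAPPA, was at 3.15, 10.2 and 3.10 RPKM, so siMYBL2-1 stood apart while siNC and siMYBL2-2 were alike.

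The insulin receptor INSR was at 1.80, 1.36 and 1.59 RPKM, and IGF1R exceeded it per length by 3.04, 3.87 and 3.58 times. IGF1, the other ligand, had 0, 0 and 4 reads, and IGFALS, the acid labile subunit of the circulating complex, had 0 reads in all 3 libraries. IGFBP5, named after its values were seen and below the filter, had 102, 14 and 50 reads, or 0.393, 0.052 and 0.168 RPKM. The proteases PAPPA and PAPPA2 were at most 0.141 and 0.0476 RPKM. Among ligand genes with a row, IGF2 was thus the one with a substantial level in these cells.

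Signalling genes below the receptors were spread about evenly over both directions. Of 33 genes 29 passed the filter, limma called 0 higher and 0 lower (smallest adjusted p 0.999), and 9 were lower in both siMYBL2 libraries, 8 higher in both and 12 neither. Their median differences, -0.05 and 0.01, were near the -0.04 and -0.01 of all rows tested. The adaptor genes IRS1 and IRS2, which bind the activated receptors, differed, with IRS1 lowest (3.72, 2.46 and 3.60 RPKM) and IRS2 highest (1.64, 2.94 and 1.69 RPKM) in siMYBL2-1. At the lower end were PIK3R2, a regulatory subunit of PI3-kinase (10.4, 6.46 and 8.98 RPKM), and the adaptor SHC1 (6.06, 4.58 and 4.75 RPKM). At the upper end were EIF4EBP1, the translation repressor that mTOR phosphorylates (44.4, 58.9 and 64.6 RPKM), and the phosphatase gene PTPN11 (18.4, 25.5 and 24.7 RPKM).

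Other imprinted genes had no common direction. Of 32 genes 26 had a row and 13 passed the filter, limma called 0 higher and 0 lower (smallest adjusted p 0.921), and 2 were lower in both siMYBL2 libraries, 3 higher in both and 8 neither. PHLDA2, a growth-limiting gene of the placenta on the same chromosome arm as H19, was higher in both, at 17.4, 53.9 and 26.2 RPKM. UBE3A, the next highest, was at 7.95, 9.36 and 9.55 RPKM. GNAS, which encodes the stimulatory G protein alpha subunit, was lower in both, at 42.7, 33.7 and 28.0 RPKM, and NAP1L5 was at 1.32, 0.649 and 1.04 RPKM. The list medians were -0.12 and 0.17.

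Among regulators of imprinting control regions, 10 of 12 genes passed the filter, and limma called 0 higher and 0 lower (smallest adjusted p 0.999). CTCF, which binds the control region between H19 and IGF2, was at 31.3, 34.5 and 39.2 RPKM, the highest difference of the list. TRIM28 was at 27.3, 30.3 and 26.9 RPKM. The DNA methyltransferase genes DNMT3B (3.74, 2.13 and 2.17 RPKM) and DNMT1 (85.1, 72.7 and 71.7 RPKM) had the lowest. In all, 5 genes of the list were lower in both siMYBL2 libraries, 1 higher and 4 neither, with medians of -0.16 and -0.02.

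Factors that bind or process H19, let-7 microRNAs or IGF2BP target RNA had medians of 0.19 and 0.09. Of 18 genes 16 passed the filter, 9 were higher in both siMYBL2 libraries, 2 lower in both and 5 in opposite directions, and limma called 0 higher and 0 lower (smallest adjusted p 0.999). HMGA2, a chromatin protein that is a let-7 target, held 807, 2478 and 1102 reads, and YTHDF1, a reader of N6-methyladenosine, was at 8.93, 14.5 and 10.2 RPKM. EZH2, the methyltransferase of Polycomb repressive complexes, was at 50.8, 45.0 and 37.0 RPKM, and DGCR8, a partner of DROSHA in microRNA processing, at 17.7, 16.8 and 14.6 RPKM. In HMGA2 and YTHDF1 siMYBL2-1 was the highest library, as in IGF2BP2 and IGF2BP3, but siMYBL2-2 differed. There HMGA2 and YTHDF1 were at 1.19 and 1.14 times siNC, while IGF2BP2 and IGF2BP3 were at 0.897 and 0.916 times. LIN28A, which blocks let-7 maturation, had 2, 0 and 0 reads.

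**Figure D5:**
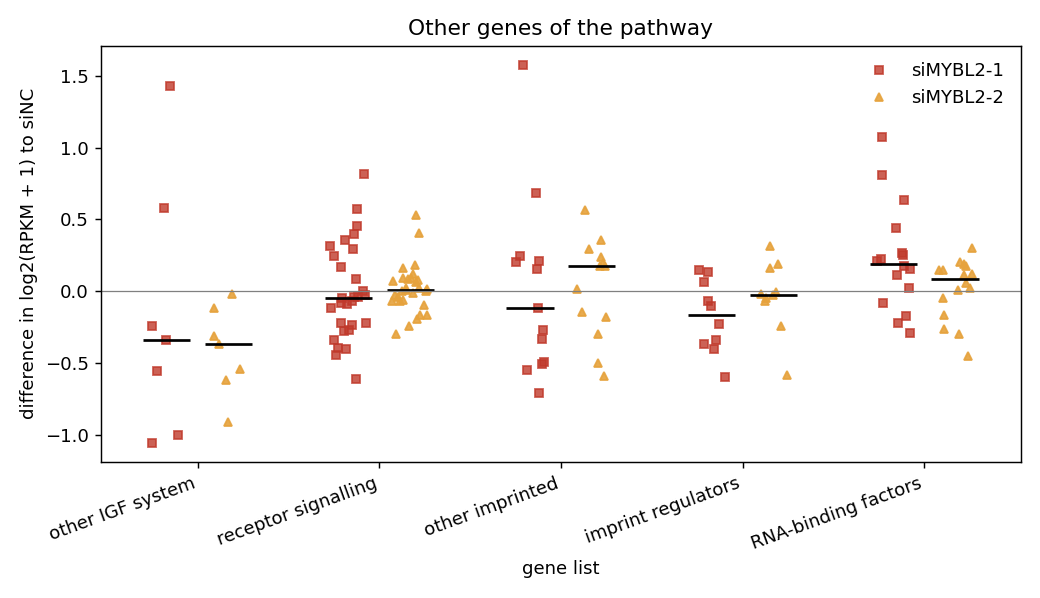
Points are genes of 5 lists (x axis) placed by their difference from siNC in log2(RPKM + 1) (y axis), with squares for siMYBL2-1 and triangles for siMYBL2-2, and black lines are medians. The other IGF system genes have medians of -0.34 and -0.37, the receptor signalling genes of -0.05 and 0.01.

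The libraries held 40259436 to 46177658 assigned reads, and mitochondrially encoded genes took 6.04% to 7.25% of them. Of 19 urothelial and other epithelial markers 15 were at 1 RPKM or more in every library, while UPK1A and UPK1B, uroplakins of the mature urothelium, were at 0 in all. The others below 1 RPKM were UPK2 (0.382, 0.843 and 0.607 RPKM) and KRT20 (0, 0.0259 and 0 RPKM). Fibroblast markers summed to 3.17 to 4.30 RPKM over 7 genes and endothelial markers to 0.0936 to 0.277 RPKM over 4, and leukocyte markers summed to 3.65 to 5.49 RPKM, nearly all of it CD68. The 15 epithelial markers had no common direction: 6 were lower in both siMYBL2 libraries (KRT5, KRT6A, KRT17, KRT19, TP63 and FOXA1), 5 higher in both (KRT7, KRT8, KRT18, CDH3 and GATA3), 3 higher in siMYBL2-1 and lower in siMYBL2-2 (KRT14, EPCAM and CDH1), and 1, PPARG, the reverse. Their part in the values above was not tested.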

How the data were processed

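Gene expression was measured by poly(A) RNA-seq in 3 libraries of 5637 cells, 1 siNC and 2 siMYBL2. The authors deposited 1 table of RPKM values with exon intervals and exonic lengths, per the file headers. Per the submitters' processing notes, hg38 was the build, and the tools named, without saying what each did, were StringTie 1.3.4d, HISAT2 2.0.4 and cutadapt 1.9. What counted the reads, and whether by strand, is not given in the sources used here. RPKM times length gave whole reads for 100% of values in each library (tolerance 0.001 reads), and counting intervals (exact conditional binomial, 95%) use these reads. They cover counting error only.

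Rows with a mean of at least 1 RPKM were tested by limma-trend (limma 3.58.1, R 4.3.3) on log2(RPKM + 1), with Benjamini-Hochberg adjusted p-values, a threshold of 0.05 and 1 siNC library assumed to vary like the siMYBL2 pair. The pseudocount understates changes of low genes. The 10 genes and the 5 lists were chosen with earlier results of these data known. Of each list the 2 lowest and 2 highest genes were named, with INSR, IRS1, IRS2, IGF2BP1 and CTCF in any case (MIR675 and LIN28B were not analysed here), and the 5 rows nearest to H19 and to the gene with the highest mean difference. VIRMA stands in the table as KIAA1429. The sequence of H19_3 is not reported here. Alternatives were another pseudocount, other filters and scalings, robust moderation, limma-voom and leaving out a library.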

Additional observations from a re-analysis of the deposited data

How the results depend on the processing

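Limma called 1 row with a pseudocount of 1 or 0.1 RPKM, 0 rows without the filter (2364 at an unadjusted p under 0.05), with a minimum of 5 RPKM (259), with median-of-ratios (498) or upper-quartile (598) scaling and with robust moderation (591), and 10 rows by limma-voom on the recovered reads (3 higher, 7 lower). With a pseudocount of 0.1 RPKM, 107 rows lay at least 2-fold below siNC in both siMYBL2 libraries and 93 above it, against 54 and 28. Leaving out 1 siMYBL2 library at a time leaves 1 library against 1 and no test, and gave 121 to 237 rows lower and 56 to 286 higher, the smaller counts being those without siMYBL2-1. The median difference over the 10 genes was -0.31 to -0.077 with 1 library left out, against -0.08. For the other IGF system genes it was -0.66 with the pseudocount of 0.1 RPKM, -0.44 with median-of-ratios scaling, -0.63 with the filter at 5 RPKM and -0.37 to -0.34 with 1 library left out, against -0.46. For receptor signalling genes it was 0.068 with that filter and -0.05 to 0.0089 with 1 library left out, against 0.00, and for other imprinted genes -0.12 to 0.17, against -0.05. The cause was not tested. Under the other pseudocount and scalings, 28 of 30 differences of single genes stayed within the spread of the siMYBL2 pair, the exceptions being IGFBP2 with the pseudocount of 0.1 RPKM (-0.17) and IGFBP4 with median-of-ratios scaling (-0.10), and IGF1R alone changed its pattern of directions. The spread of the pair (SD) ran from 0.026 for IGFBP2 to 0.63 for IGF2R. For genes with a wide spread, such as H19 (0.60), staying within it was a weak check. No paired analysis was possible because there is 1 siNC library and the labels give it no number.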
